A study of Mus musculus with 11 samples.

Results

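The 10 genes described here are immediate-early response genes of mouse skeletal muscle, genes that cells transcribe within minutes of a stimulus without first making new protein. They were Fos, Fosb, Jun, Junb, Egr1, Egr3, Ier2, Ier3, Myc and Btg2, chosen by name from the deposited table, so that 10 of its 55385 genes were followed and all 10 of them passed the low-count filter that left 15416 genes. RNA was sequenced from whole gastrocnemius, a mixed-fibre muscle of the calf, of mice fasted for 36 h. The 4 groups were ZEB2 flx/flx mice with HSACre (ZEB2 knockout, 3 libraries), ZEB2 flx/flx mice without it (ZEB2 control, 3 libraries), ZEB1 flx/flx mice with HSACre (ZEB1 knockout, 3 libraries) and ZEB1 flx/flx mice without it (ZEB1 control, 2 libraries, numbered 2 and 3). The Cre recombinase is driven by the human skeletal actin promoter, which is active in myofibres, so other cells of the muscle keep the floxed gene. No group carried Cre alone, no group was fed, and every library pooled 2 mice whose age is not given in the sources used here. In whole muscle, fewer cells of a type and less RNA per cell cannot be told apart.

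Fos, Fosb, Jun and Junb encode subunits of AP-1, a dimeric transcription factor in which a FOS protein pairs with a JUN protein. Egr1 and Egr3 encode zinc-finger transcription factors that bind GC-rich sites. Ier2 and Ier3 encode small early response proteins, the second of them linked to cell survival and stress signalling. Myc encodes a transcription factor of growth and ribosome production, and Btg2 encodes an antiproliferative protein that recruits the CCR4-NOT deadenylase to messenger RNA. Growth factors, contraction, injury and stress reach these genes through MAP kinases, serum response factor and CREB, and their RNAs are mostly short-lived. In muscle they are known to respond to exercise and denervation.

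Total counts ran from 27.3 to 46.3 M per library, and mitochondrial genes took 12.1% to 18.0% of them. Levels below are in CPM, the usual depth-scaled unit of counts, after TMM scaling, and fold changes are on the log2 scale with their standard error (SE) from edgeR. The targeted genes followed the labels without passing the adjusted threshold of 0.05. Zeb2 had 18.3, 14.4 and 17.7 CPM in ZEB2 knockouts, against 24.1, 23.1 and 25.8 CPM in ZEB2 controls. Zeb1 had 28.4, 28.6 and 30.4 CPM in ZEB1 knockouts, against 41.2 and 51.1 CPM in ZEB1 controls. Both counts include exons outside the deleted part and transcripts of other cell types. Summed fibroblast markers (10 genes) ran from 651 to 878 CPM in ZEB2 knockouts, against 1058 to 1429 CPM in ZEB2 controls, and from 706 to 997 CPM in ZEB1 knockouts, against 1076 to 1321 CPM in ZEB1 controls. Myofibre markers (8 genes) summed to between 90190 and 115500 CPM in every library, so the labelled tissue carried its defining genes. These sums were 112200 to 115500 CPM in ZEB2 knockouts, against 99550 to 104200 CPM in ZEB2 controls, with 5 of the markers higher and 3 lower. In the ZEB1 line they overlapped. Y-linked transcripts were at 0 in 4 libraries, namely ZEB2 control 3, ZEB1 knockouts 1 and 2 and ZEB1 control 2, so the pools differed in the sex of their mice within and between groups.

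Promoters of 4 members are printed, those of Junb and Btg2 because both genes vary together between libraries (below) and those of the FOS genes to compare close relatives. They are taken from RefSeq (GRCm38.p6), each from 250 bases before to 50 after the start of transcription and on the strand of the gene. Results are given for the RefSeq windows of 6 of the 10 members, and not for Egr1, Egr3, Ier2 and Myc. The windows are chr12:85473640-85473939 on the plus strand for Fos, and chr7:19309996-19310295, chr8:84978699-84978998 and chr1:134079106-134079405 on the minus strand for Fosb, Junb and Btg2. Capitals mark matches to a cyclic AMP response element (CRE, TGACGTCA) or its 5-base core (TGACG), an EGR site (GCGNGGGCG) and a TATA box (TATAAA), all searched on both strands.
Fos: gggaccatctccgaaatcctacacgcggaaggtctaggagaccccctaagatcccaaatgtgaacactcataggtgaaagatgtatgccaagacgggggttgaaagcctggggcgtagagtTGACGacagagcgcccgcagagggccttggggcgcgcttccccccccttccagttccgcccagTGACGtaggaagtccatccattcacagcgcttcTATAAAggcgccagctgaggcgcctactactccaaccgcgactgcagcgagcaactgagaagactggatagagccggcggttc
Fosb: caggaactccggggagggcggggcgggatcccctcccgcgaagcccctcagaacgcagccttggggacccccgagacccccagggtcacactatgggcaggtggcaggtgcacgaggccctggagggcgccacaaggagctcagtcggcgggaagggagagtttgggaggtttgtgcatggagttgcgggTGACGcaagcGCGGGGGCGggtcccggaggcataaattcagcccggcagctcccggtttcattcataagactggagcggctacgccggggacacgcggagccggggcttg
Junb: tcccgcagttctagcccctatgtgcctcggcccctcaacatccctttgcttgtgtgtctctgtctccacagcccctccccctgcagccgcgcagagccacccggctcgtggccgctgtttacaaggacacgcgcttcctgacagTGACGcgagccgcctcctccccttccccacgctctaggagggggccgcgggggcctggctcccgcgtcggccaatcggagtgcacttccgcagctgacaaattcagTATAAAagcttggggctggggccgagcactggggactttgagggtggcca
Btg2: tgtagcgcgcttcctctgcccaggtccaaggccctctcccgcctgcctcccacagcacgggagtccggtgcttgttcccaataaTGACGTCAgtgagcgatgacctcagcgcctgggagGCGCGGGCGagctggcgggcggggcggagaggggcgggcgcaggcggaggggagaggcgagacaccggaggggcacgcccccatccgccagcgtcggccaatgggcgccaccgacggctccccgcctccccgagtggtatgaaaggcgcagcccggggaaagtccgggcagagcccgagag

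Btg2 held a whole CRE starting at position -166 (counted from the first transcribed base as 1), which contains the core on both strands, and an EGR site at -131. Fos held CRE cores at -129 and -66 and a TATA box at -33. Fosb held a core at -60 and an EGR site at -50, and Junb a core at -106 and a TATA box starting at the first base annotated by RefSeq. GENCODE M21 places the first base of Junb at 84978718 and that of Btg2 at 134079120, both downstream of the RefSeq base. The TATA box of Junb lies upstream of its GENCODE base, and positions in both genes depend on the annotation used. Of all 32817 RefSeq windows of the same length, 1.79% held a whole CRE, 20.8% a core, 5.56% an EGR site and 13.6% a TATA box. None of the 6 windows held these AP-1 letters (TGACTCA or TGAGTCA) or a CArG box, present in 5.2% and 1.63% of all windows. Bases farther than 250 before the start were not searched, so sites there would be missed. The windows of Jun and Ier3 held none of the searched motifs. These are matches of letters in 1 window and say nothing about binding in these muscles.

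The members differed widely in level. Per kilobase of exon, the mean level over the 11 libraries was 41.7 CPM for Btg2 and 21.2 CPM for Jun, followed by 7.53 CPM for Junb, 6.0 CPM for Ier3, 4.31 CPM for Ier2, 3.90 CPM for Fos, 2.79 CPM for Egr1 and 2.23 CPM for Myc. Egr3 and Fosb were near the limit of detection on that scale, at 0.176 and 0.0871 CPM per kilobase, and rested on 5 to 61 counts and 5 to 37 counts per library. Egr1 and Egr3 had the widest range of the 10, with the highest library 10.8 and 13.2 times the lowest. The SD of log2 CPM over the 11 libraries was 1.24 for Egr1 and 1.29 for Egr3, which placed them at the 98.1 and 98.4 percentiles of all tested genes. Ier2 was the steadiest member, with a highest library 2.01 times the lowest and an SD of 0.31, against a median of 0.34 over all tested genes.

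**Figure D1:**
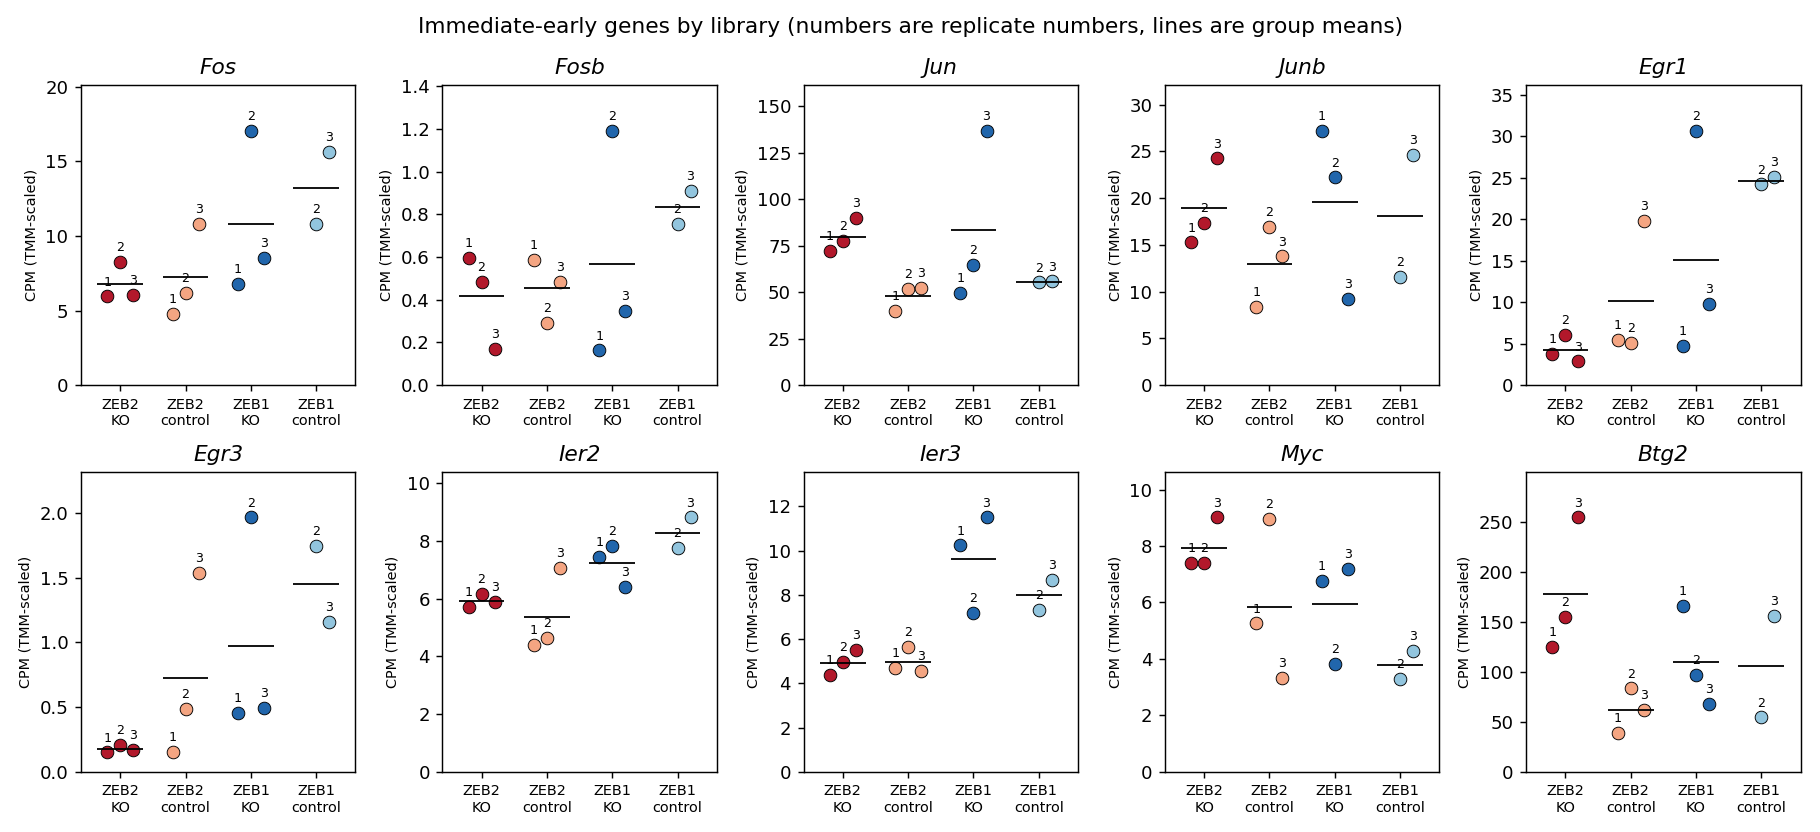
Level of each of the 10 genes in TMM-scaled CPM (linear axis from 0) in each library, grouped as ZEB2 knockout, ZEB2 control, ZEB1 knockout and ZEB1 control. Points are libraries with their replicate numbers, and lines are group means. Egr1 and Egr3 spread over more than a factor of 10, while Ier2 stays within 4.39 to 8.81 CPM.

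ZEB2 knockout against ZEB2 control asked what loss of ZEB2 in myofibres does to these genes in fasted muscle. No member passed the adjusted threshold in edgeR, nor did any of the 15416 genes tested (0%), while 33.2% of all genes and 3 members had an unadjusted p under 0.05. Of these members Btg2 and Jun were higher (15.9% of all genes) and Egr3 was lower (17.3%). Among the 10 members, 5 had a higher and 5 a lower level in knockouts, and their median log2 fold change was 0.06, against -0.05 over all tested genes. Btg2 and Jun had every knockout library above every control library, which 21.3% of all tested genes did, and no member had every knockout library below, against 22.1% of all genes.

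Btg2 had 124.6, 154.4 and 254.2 CPM in ZEB2 knockouts, against 39.2, 83.3 and 61.7 CPM in ZEB2 controls. All 3 knockout libraries were above all 3 controls, and knockout 3 was the highest of the 11 libraries. The mean was 178 ± 67.9 CPM in knockouts and 61.4 ± 22.1 CPM in controls (SD, n = 3 each), a log2 fold change of 1.53 (SE 0.47, adjusted p = 0.0869 in edgeR). DESeq2 called it higher, at 1.57 (adjusted p = 0.0103), as it did 9.78% of all genes. In limma-voom, which called 0% of all genes, Btg2 was at 1.53 (adjusted p = 0.0776). Without any 1 of the 11 libraries the log2 fold change in edgeR lay between 1.20 and 1.82. The first principal component of all tested genes also separated these groups, at 32.1, 32.3 and 81.5 in ZEB2 knockouts, against -16.7, -8.36 and -48.7 in ZEB2 controls. Within the controls this component did not follow the order of Btg2. In the ZEB1 line it was at 13.2, -44.9 and 2.85 in knockouts, against -58.17 and 14.95 in controls. Its part in the result was not tested.

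Jun had 72.1, 77.7 and 89.8 CPM in ZEB2 knockouts, against 39.7, 51.9 and 52.1 CPM in ZEB2 controls. The 2 groups did not overlap, and each group was tight. The log2 fold change was 0.74 (SE 0.31, adjusted p = 0.130 in edgeR). When edgeR was fitted to the 6 libraries of the ZEB2 line alone, Jun and Btg2 passed, at 0.75 (adjusted p = 0.0388) and 1.54 (adjusted p = 0.0395), as did 7.61% of all genes in that direction. Junb, the other JUN member, had 15.3, 17.3 and 24.2 CPM in ZEB2 knockouts, against 8.35, 16.9 and 13.8 CPM in ZEB2 controls. Its groups overlapped at knockout 1 and control 2 (log2 fold change 0.54, SE 0.42, adjusted p = 0.377 in edgeR).

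The FOS members stayed close to their controls. Fos had 5.94, 8.28 and 6.03 CPM in ZEB2 knockouts, against 4.79, 6.15 and 10.8 CPM in ZEB2 controls, a log2 fold change of -0.10 (SE 0.38). Fosb averaged 0.416 ± 0.222 CPM in knockouts and 0.454 ± 0.151 CPM in controls (SD, n = 3 each), a log2 fold change of -0.13 (SE 0.66). The groups overlapped for both genes. Control 3 held the highest Fos of the 6 libraries and control 1 the lowest.

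The EGR members had lower means in knockouts, through 1 or 2 control libraries. Egr1 had 3.73, 6.03 and 2.84 CPM in ZEB2 knockouts, against 5.41, 5.09 and 19.8 CPM in ZEB2 controls. Knockout 2 was above controls 1 and 2, and control 3 stood apart from the other 5 libraries. The log2 fold change was -1.27 (SE 0.71, adjusted p = 0.230 in edgeR) and was -0.32 without control 3. Egr3 had 0.149, 0.207 and 0.169 CPM in ZEB2 knockouts, against 0.155, 0.483 and 1.53 CPM in ZEB2 controls, that is 5, 9 and 6 counts against 5, 15 and 57 counts. Its log2 fold change was -2.03 (SE 0.83, adjusted p = 0.124 in edgeR) and -0.83 without control 3. Summed Y-linked transcripts were at 216, 256 and 378 CPM in ZEB2 knockouts, against 118, 250 and 0 CPM in ZEB2 controls. Their part in these values was not tested.

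Ier2, Ier3 and Myc showed no difference beyond the spread of their libraries. Ier3 averaged 4.93 ± 0.566 CPM in ZEB2 knockouts and 4.97 ± 0.581 CPM in ZEB2 controls (SD, n = 3 each), a log2 fold change of -0.01 (SE 0.20). Ier2 averaged 5.92 ± 0.233 CPM in knockouts and 5.37 ± 1.49 CPM in controls, a log2 fold change of 0.14 (SE 0.19). Myc had 7.41, 7.41 and 9.01 CPM in ZEB2 knockouts, against 5.26, 8.96 and 3.34 CPM in ZEB2 controls. Its knockouts lay closer together than its controls (log2 fold change 0.44, SE 0.33, adjusted p = 0.357 in edgeR). The controls at 5.26 and 3.34 CPM were below every knockout, and the control at 8.96 CPM lay within the range of the knockouts. Markers of several non-muscle cell types moved in this comparison. All 10 fibroblast and all 8 smooth muscle and pericyte markers had lower levels in knockouts, the second list summing to between 441 and 457 CPM in knockouts, against 565 to 636 CPM in controls, and 9 of 10 macrophage markers were lower, at 98.2 to 110 CPM, against 122 to 159 CPM. The part of these cells, and of the higher myofibre marker sums in ZEB2 knockouts, in the values of the 10 genes was not tested.

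**Figure D2:**
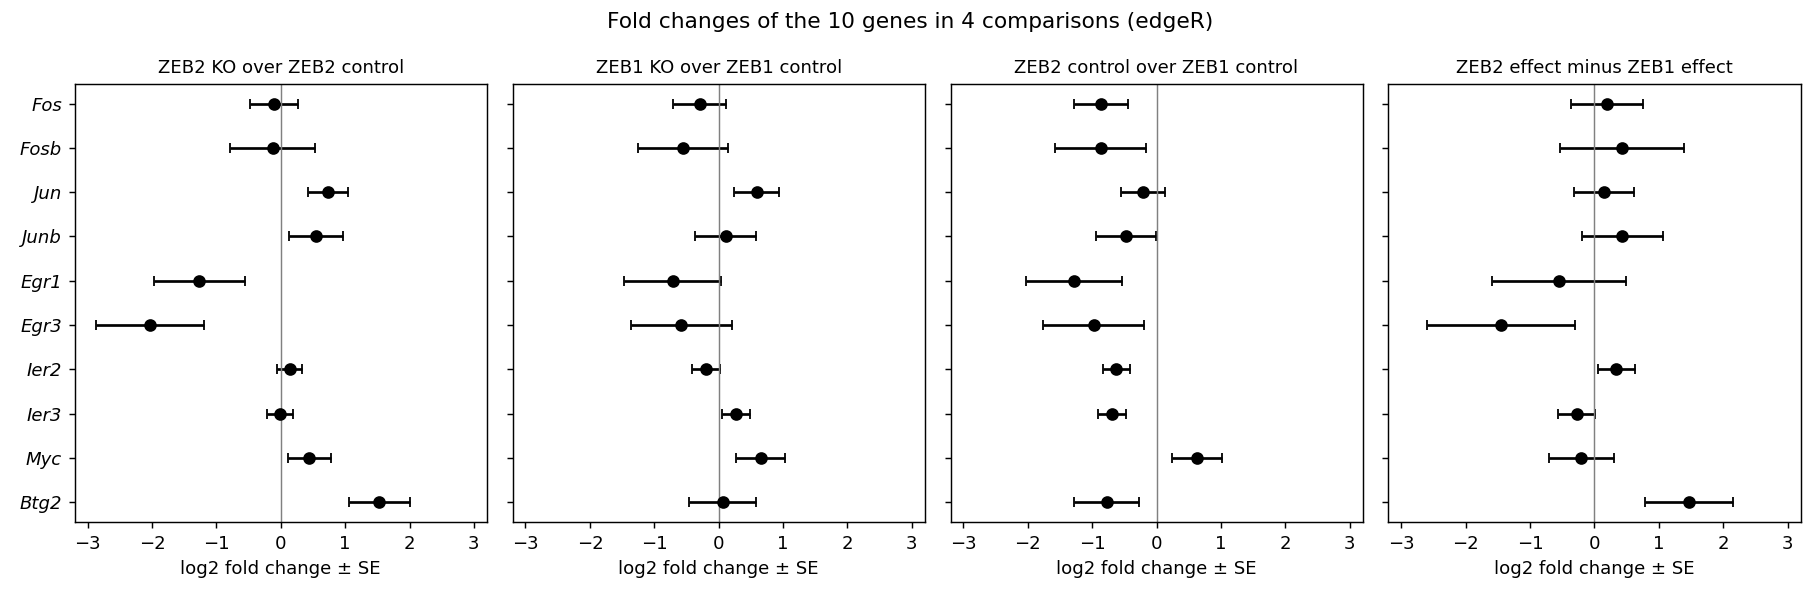
edgeR log2 fold change of each of the 10 genes with bars of 1 SE, in ZEB2 knockout against ZEB2 control, ZEB1 knockout against ZEB1 control, ZEB2 control against ZEB1 control, and the difference of both knockout effects. Btg2 lies farthest above 0 in the ZEB2 knockout comparison, and 9 of 10 genes lie below 0 between the controls.

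ZEB1 knockout against ZEB1 control asked the same of ZEB1, with 2 control libraries. No member passed in edgeR, nor did any gene (0%), and 3.24% of all genes but no member had an unadjusted p under 0.05. No member had groups that did not overlap, against 13.9% of all tested genes in either direction. Of the members, 5 were higher and 5 lower in knockouts, and their median log2 fold change was -0.07, against 0.01 over all genes. Single libraries set several means.

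Jun had 49.4, 64.4 and 136.9 CPM in ZEB1 knockouts, against 55.2 and 55.8 CPM in ZEB1 controls. Knockout 3 alone was far above the controls, and knockout 1 was below them. The log2 fold change was 0.59 (SE 0.35, adjusted p = 1.00 in edgeR), and 0.03 without knockout 3. Egr1 had 4.68, 30.7 and 9.81 CPM in ZEB1 knockouts, against 24.2 and 25.1 CPM in ZEB1 controls. Knockout 2 was above both controls and the other two knockouts were below them. The log2 fold change was -0.71 (SE 0.75) and -1.77 without knockout 2. Egr3 followed the same order within the knockouts, at 0.455, 1.96 and 0.493 CPM in ZEB1 knockouts, against 1.74 and 1.15 CPM in ZEB1 controls.

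Fos had 6.79, 17.1 and 8.5 CPM in ZEB1 knockouts, against 10.8 and 15.6 CPM in ZEB1 controls, with knockout 2 again the highest (log2 fold change -0.29, SE 0.41). Fosb had 0.162, 1.19 and 0.348 CPM in ZEB1 knockouts, against 0.756 and 0.909 CPM in ZEB1 controls. Junb had 27.2, 22.2 and 9.17 CPM in ZEB1 knockouts, against 11.6 and 24.7 CPM in ZEB1 controls, and Btg2 165.8, 96.7 and 67.5 CPM in ZEB1 knockouts, against 54.3 and 156.1 CPM in ZEB1 controls. For both genes knockout 1 and control 3 were the high libraries of the line. The log2 fold change of Btg2 was 0.06 (SE 0.52), and that of Junb was 0.11 (SE 0.47). Without 1 control library Btg2 gave -0.52 or 1.01. Ier2 averaged 7.22 ± 0.728 CPM in knockouts (SD, n = 3) and 8.29 ± 0.747 CPM in controls (SD, n = 2). Ier3 averaged 9.63 ± 2.22 CPM in knockouts and 8.0 ± 0.951 CPM in controls, and Myc 5.93 ± 1.83 CPM in knockouts and 3.78 ± 0.693 CPM in controls.

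The controls of both lines carry floxed alleles and no Cre, so ZEB2 control against ZEB1 control compares the lines without any deletion. Sex and cell type markers of these pools differed too (below). This comparison had 9 of the 10 members lower in ZEB2 controls, against 7341 of all 15416 tested genes. The median log2 fold change of the members was -0.73, against 0.01 over all tested genes. Several members varied together (below), so they do not count as separate observations. In edgeR, 3 genes were called in all (0.0195%) and no member. Fosb, Jun, Egr1, Ier2 and Ier3 had every ZEB2 control below both ZEB1 controls, which 7.66% of all genes did. Ier2 and Ier3 were lower at an unadjusted p under 0.05, against 1.75% of all genes in that direction and 3.32% in either. Myc was the member with a higher mean in ZEB2 controls (log2 fold change 0.63, SE 0.39). The number of members lower lay between 7 and 9 when any 1 library was left out.

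Ier3 had 4.70, 5.64 and 4.58 CPM in ZEB2 controls, against 7.33 and 8.67 CPM in ZEB1 controls, a log2 fold change of -0.69 (SE 0.22, unadjusted p = 0.00872 and adjusted p = 1.00 in edgeR). Ier2 had 4.39, 4.64 and 7.08 CPM in ZEB2 controls, against 7.76 and 8.81 CPM in ZEB1 controls, a log2 fold change of -0.62 (SE 0.21, unadjusted p = 0.0136 and adjusted p = 1.00 in edgeR). In both genes all ZEB2 controls were below both ZEB1 controls, with control 3 of the ZEB2 line nearest for Ier2. Egr1 had 5.41, 5.09 and 19.8 CPM in ZEB2 controls, against 24.2 and 25.1 CPM in ZEB1 controls, and its log2 fold change of -1.28 (SE 0.75) had ZEB2 control 3 close to the ZEB1 controls. For Fos the value was -0.86 (SE 0.41). For Btg2 it was -0.78 (SE 0.51) with the ZEB1 controls themselves at 54.3 and 156.1 CPM, and without ZEB1 control 3 it was 0.17. Summed Y-linked transcripts were at 118, 250 and 0 CPM in ZEB2 controls, against 0 and 163 CPM in ZEB1 controls. Macrophage markers summed to 122 to 159 CPM in ZEB2 controls, against 176 to 199 CPM in ZEB1 controls, with 8 of 10 lower. Smooth muscle and pericyte sums (565 to 636 against 512.5 to 553.5 CPM) and erythroid sums (1389 to 1778 against 1100 to 1241 CPM) were higher in ZEB2 controls. Sums of the other marker lists overlapped. The part of sex and of these cells in the values was not tested.

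Ier3 separated the lines whatever the Cre status, a pattern chosen after its values were seen. It had 4.36 to 5.64 CPM in the 6 libraries of the ZEB2 line, against 7.18 to 11.5 CPM in the 5 libraries of the ZEB1 line, and no library of one line reached the other. Of all 15416 tested genes, 78 (0.506%) were lower in the ZEB2 line in this way and 42 (0.272%) were higher. None of the 74 tested genes within 1 Mb of Ier3 separated the lines. Among the neighbours of the other members within the same distance, Junos, antisense to Jun, and Orc6, near Junb and Ier2, did.

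The test of whether both knockouts act alike, the ZEB2 effect minus the ZEB1 effect, called no gene in edgeR (0%) and 9.26% of all genes had an unadjusted p under 0.05, none of them a member. Btg2 had the largest difference of the members that were higher, at 1.47 (SE 0.69, unadjusted p = 0.0584 and adjusted p = 0.516 in edgeR), and 0.55 without ZEB1 control 3. Egr3 was at -1.45 (SE 1.15), and the other 8 members lay between -0.55 and 0.44. A p above the threshold does not show that the 2 knockouts act alike.

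**Figure D3:**
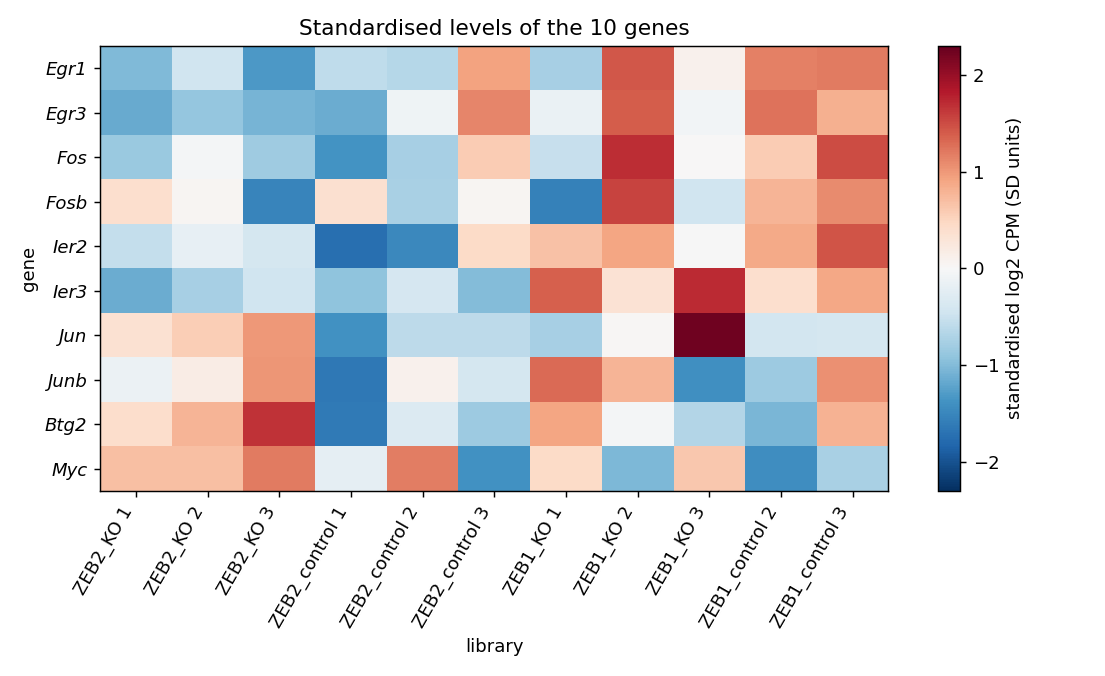
Standardised log2 CPM (SD units over the 11 libraries) of the 10 genes by library, in the order ZEB2 knockout, ZEB2 control, ZEB1 knockout, ZEB1 control. Egr1, Egr3 and Fos share their high libraries, and Btg2 and Junb share others.

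The members did not vary as 1 block across the 11 libraries. Over all 45 pairs the median Pearson r of log2 CPM was 0.17, and 7 pairs had a permutation p below 0.05 after adjustment over the 45 pairs, 5 of them positive. These permutation tests were added after the levels had been seen, so they describe pairs already noticed. All points share their library, and libraries of a group share a genotype. The permutations moved libraries freely across groups, so their p cannot tell shared group differences from variation within groups. Pairs of other genes were not tested, so how common such r are among all tested genes in these libraries is not known. The r given below after group means were taken out carry no test. The pairs of a first set were Egr1 with Egr3 (r = 0.93, rho = 0.85, permutation p = 0.00035, adjusted 0.00788), Fos with Egr1 (r = 0.91, rho = 0.88, permutation p = 0.00011, adjusted 0.00495), Fos with Egr3 (r = 0.86, rho = 0.92, permutation p = 0.00087, adjusted 0.00938) and Fos with Ier2 (r = 0.84, rho = 0.89, permutation p = 0.00125, adjusted 0.00938). Without the 2 libraries farthest from the median of the first gene, these r were 0.90, 0.86, 0.84 and 0.79. After the group means were taken out, r was 0.84, 0.93, 0.86 and 0.75. The 4 libraries with the highest Egr1, Egr3 and Fos were the same for all 3 genes, and they were ZEB2 control 3, ZEB1 knockout 2 and ZEB1 controls 2 and 3.

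Btg2 with Junb formed a second pair (r = 0.85, rho = 0.90, permutation p = 0.00109, adjusted 0.00938), at 0.79 without the 2 farthest libraries and 0.92 after group means were taken out. The top 4 libraries of Btg2 were ZEB2 knockouts 2 and 3, ZEB1 knockout 1 and ZEB1 control 3, and 3 of them were among the top 4 of Junb. Myc went the other way from Egr1 (r = -0.88, rho = -0.77, permutation p = 0.00122, adjusted 0.00938) and from Egr3 (r = -0.81, rho = -0.70, permutation p = 0.00546, adjusted 0.0351), at -0.87 and -0.69 without the 2 farthest libraries. After group means were taken out they were -0.81 and -0.67. By rank, the adjusted permutation p was 0.0462 for Egr1 with Myc and 0.0924 for Egr3 with Myc, so the second pair did not pass. Of the 4 libraries with the highest Egr1, 3 had no Y-linked transcripts, and the fourth library without them, ZEB1 knockout 1, had 4.68 CPM of Egr1. The part of sex in the pattern was not tested.

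**Figure D4:**
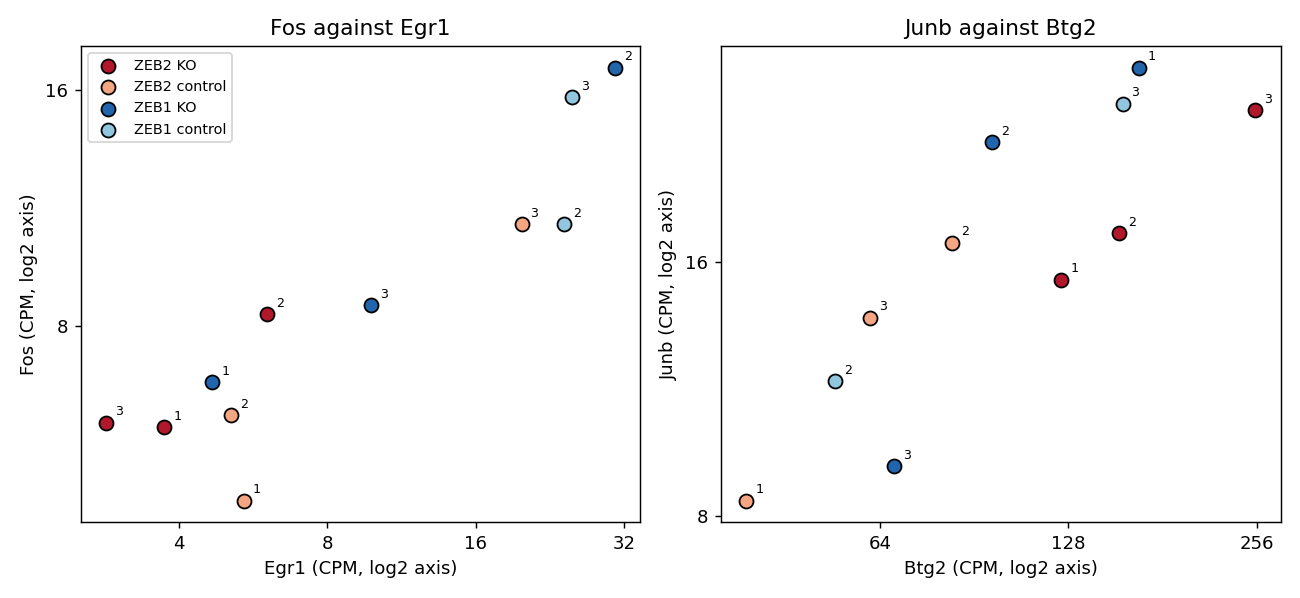
Level of Fos (vertical) against Egr1 (horizontal) and of Junb against Btg2 (CPM, log2 axes), 1 point per library, coloured by group. Each pair forms a line across groups, with ZEB1 knockout 2 at the top of the first and ZEB1 knockout 1 near the top of the second.

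**Figure D5:**
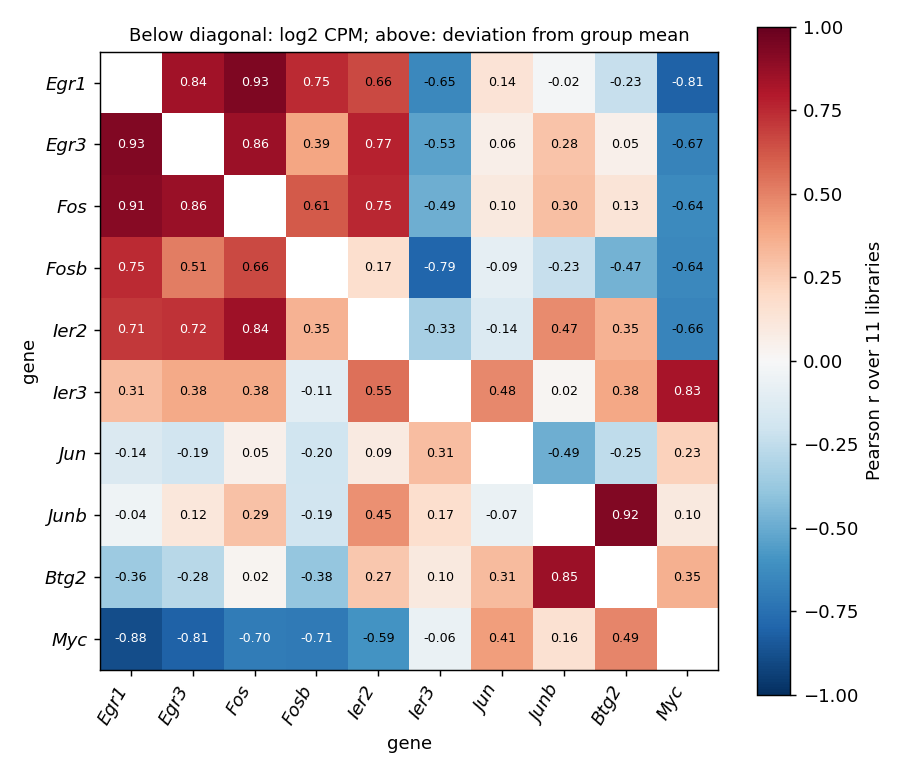
Pearson r over the 11 libraries for all 45 pairs of the 10 genes, from log2 CPM below the diagonal and from deviations from the group mean above it. Below the diagonal, Fos, Egr1, Egr3 and Ier2 are positive with each other, and so is Fosb with them, from 0.35 with Ier2 to 0.75 with Egr1. Each of these genes is negative with Myc, from -0.595 for Ier2 to -0.88 for Egr1.

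Other genes of the same pathways were followed as lists. None of their genes passed in edgeR in either knockout comparison or in the difference of effects, where 0% of all genes did. None passed between the controls either, where 0.0195% of all genes did. Genes named below were picked as the 2 lowest unadjusted p of their list and comparison, so their values are the extremes of each list. Of all 15416 tested genes, 7184 were higher and 8226 lower in ZEB2 knockouts. Between the controls, 8074 were higher and 7341 lower in ZEB2 controls. In ZEB2 knockouts, 10 of 11 tested other AP-1, ATF and small MAF genes had higher levels, and the median log2 fold change of the list was 0.98. Of these genes, 6 were higher at an unadjusted p under 0.05 in edgeR, against 15.9% of all genes. DESeq2 called 3 higher, against 9.78% of all genes. Atf4, a stress-responsive activator, had 454.7, 479.6 and 678.5 CPM in ZEB2 knockouts, against 269.4, 344.7 and 201.8 CPM in ZEB2 controls, a log2 fold change of 0.98 (SE 0.32, adjusted p = 0.0909 in edgeR). Fosl2, a further FOS subunit, had 20.9, 46.5 and 105.8 CPM in ZEB2 knockouts, against 15, 22.2 and 19.4 CPM in ZEB2 controls (1.61, SE 0.60). Its difference between both knockout effects was 2.20 (SE 0.87, adjusted p = 0.516 in edgeR), and that of Maff, a small MAF protein, 2.89 (SE 1.28). In the ZEB1 comparison the median of this list was -0.02, with Jdp2 at 0.38 (SE 0.26) and Fosl2 at -0.59 (SE 0.65), and between the controls it was -0.25, with Maff at -1.50 (SE 0.95) and Fosl2 at -0.89 (SE 0.65).

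A list of 14 tested early factors held other EGR, NR4A and KLF factors, EGR cofactors, and Nfil3, Crem, Csrnp1 and Hes1. Of these, 5 were higher and 9 lower in ZEB2 knockouts. Nab1, a corepressor of EGR proteins, had a log2 fold change of -0.63 (SE 0.16, adjusted p = 0.0775 in edgeR) and Klf6 of 0.87 (SE 0.23, adjusted p = 0.0787 in edgeR), and DESeq2 called both. Nr4a3, an orphan nuclear receptor of the early response, had 28.2, 5.28 and 10.04 CPM in ZEB1 knockouts, against 2.04 and 3.81 CPM in ZEB1 controls, a log2 fold change of 2.31 (SE 0.73, adjusted p = 1.00 in edgeR), and Nr4a2 was at 0.44 (SE 0.61). Between the controls, 12 of these 14 genes were lower in ZEB2 controls, with Klf6 at -0.73 (SE 0.26) and Csrnp1 at -1.58 (SE 0.82). The difference of effects was 0.92 for Klf6 (SE 0.35) and -0.57 for Nab1 (SE 0.23).

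The 26 early feedback regulators were split evenly in ZEB2 knockouts, 13 higher and 13 lower, and DESeq2 called 5 higher (9.78% of all genes) and 4 lower (8.34%). Nfkbia, the inhibitor of NF-kB, was at 1.27 (SE 0.32, adjusted p = 0.0775 in edgeR) and Tiparp at 2.33 (SE 0.63, adjusted p = 0.0793 in edgeR). In the ZEB1 comparison Mcl1 was at 0.36 (SE 0.16) and Dusp5, a MAP kinase phosphatase, at 1.33 (SE 0.71). Between the controls, 18 of 26 were lower in ZEB2 controls, with Errfi1, an inhibitor of EGF receptors, at -1.46 (SE 0.54) and Zfp36, which speeds the decay of early response RNAs, at -1.10 (SE 0.42). The differences of effects were 2.94 for Tiparp (SE 0.90) and 2.15 for Errfi1 (SE 0.73).

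Of 15 serum response factor cofactors and targets, 12 had lower levels in ZEB2 knockouts, among them the cofactor Mrtfa at -1.34 (SE 0.33, adjusted p = 0.0775 in edgeR) and Fhl2 at -1.31 (SE 0.35), and DESeq2 called 1 higher (9.78% of all genes) and 4 lower (8.34%). Fhl2 was at -0.76 (SE 0.38) and Ankrd1 at 0.77 (SE 0.42) in the ZEB1 comparison. Mrtfa was at 1.12 (SE 0.37) and Ccn1 at -0.72 (SE 0.41) between the controls, and the differences of effects were -0.65 for Tpm4 (SE 0.28) and -0.90 for Actg1 (SE 0.40). Of 24 upstream MAP kinase, CREB and JNK genes, 15 were higher in ZEB2 knockouts. Crtc2, a coactivator of CREB, was at 1.04 (SE 0.25, adjusted p = 0.0775 in edgeR) and the kinase Map2k7, which acts on JNK, at 0.62 (SE 0.17). Mapk7 was at -0.39 (SE 0.22) and Rps6ka2 at -0.18 (SE 0.16) in the ZEB1 comparison, and Creb1 at 0.44 (SE 0.17) and Rps6ka3 at 0.31 (SE 0.14) between the controls. The differences of effects were 1.13 for Crtc2 (SE 0.37) and -0.68 for Creb1 (SE 0.23).

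Of 22 listed genes around MYC, 19 were higher in ZEB2 knockouts, and the median log2 fold change of the list was 0.44. The list holds partners, relatives and targets of MYC, and also MAX partners that oppose it, such as Mxd4 and Mnt. Its count is therefore no measure of MYC activity. DESeq2 called 5 higher (9.78% of all genes) and 1 lower (8.34%). Max, the obligate partner of MYC, was at 0.75 (SE 0.24, adjusted p = 0.0869 in edgeR), and Ccnd2, a cyclin, at -1.01 (SE 0.33). In the ZEB1 comparison Mycn was at -1.75 (SE 0.75) and Polr1b at 0.35 (SE 0.19), between the controls Mxd4 at -0.43 (SE 0.26) and Ccnd2 at 0.62 (SE 0.38), and the differences of effects were 0.90 for Mxd4 (SE 0.34) and 0.84 for Max (SE 0.35). Of the relatives of Btg2, Btg1 was at 0.56 (SE 0.20) and Tob2 at 0.50 (SE 0.20) in ZEB2 knockouts. Tob2 had 56.6, 47.0 and 46.7 CPM in ZEB2 controls, against 100.4 and 106.6 CPM in ZEB1 controls, a log2 fold change of -1.05 (SE 0.22, adjusted p = 0.571 in edgeR), and DESeq2 called it lower, as it did 0.0676% of all genes. Tob2 was at 0.53 (SE 0.23) and Btg1 at -0.27 (SE 0.23) in the ZEB1 comparison, Tob1 at -0.42 (SE 0.23) between the controls, and the differences of effects were 0.83 for Btg1 (SE 0.30) and -0.49 for Tob1 (SE 0.32).

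Among 11593 named genes with at least 1 CPM on average, the 5 whose log2 CPM was most like the mean standardised level of the 10 members were Stc1 (r = 0.86), Zfp119b (r = 0.83), Plk3 (r = 0.83), Spty2d1 (r = 0.82) and Ankrd9 (r = 0.80), over the 11 libraries. These r are a description and carry no test, since libraries of a group share a genotype and the 5 were picked as the highest.

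The members are compact genes. In GENCODE M21 (GRCm38) their spans ran from 1240 to 7356 bases with a median of 4093, against 21112 over 15401 tested genes with a value, and their median number of exon blocks was 2, against 8. Only 23.6% of tested genes span no more than the longest member. Fos lies at chr12:85473890-85477273 on the plus strand, Fosb at chr7:19302696-19310051, Jun at chr4:95049034-95052222, Junb at chr8:84974484-84978718 and Btg2 at chr1:134075170-134079120, these 4 on the minus strand. Egr3 lies at chr14:70077203-70082614, Ier3 at chr17:35821684-35822923, Myc at chr15:61985391-61990374 and Egr1 at chr18:34859823-34864984, on the plus strand, and Ier2 at chr8:84661331-84662852 on the minus strand. Jun overlaps Junos and Junb overlaps Prdx2 on the opposite strand. Junos had 0.612 to 1.32 CPM and Prdx2 85.8 to 109 CPM, and reads of overlapping genes cannot be assigned with certainty, since the strand setting of the counting is not given in the sources used here.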

How the data were processed

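RNA was sequenced from gastrocnemius of mice fasted for 36 h, in 11 libraries of 4 groups, each a pool of 2 mice. The p-values therefore reflect how much pools of a group vary. The authors deposited estimated counts per gene, written as whole numbers and not normalized. Per the submitters' processing notes, the tools were STAR, RSEM and DESeq2 on GRCm38; versions and the strand setting are not stated there. The members and lists were chosen with earlier results of these data known. Genes were named by a rule: the 10 members, the 2 lowest unadjusted p per pathway list and comparison, and the 5 genes most like the members' mean level.

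The analysis used edgeR 4.0.16 in R 4.3.3 (filterByExpr, minimum count 10, minimum total 15, TMM scaling). A robust quasi-likelihood fit with 4 group means over the 11 libraries supplied the contrasts. P-values were adjusted by Benjamini-Hochberg over 15416 genes, at a threshold of 0.05. The biological coefficient of variation was 0.240. SE is the absolute log2 fold change over the square root of F. Levels for correlations and the figures used log2 CPM with a prior count of 2, and pair p-values came from 100000 two-sided permutations of the libraries, a test added after the data had been seen. Markers were fixed for 10 cell types and used as summed CPM. Alternatives were DESeq2 1.42.0, limma-voom (limma 3.58.1), other scaling, other filters, the groups compared alone, the replicate block and leaving out each library. No libraries were duplicates: the chi-square of replicate pairs was 16.3 to 109 per degree of freedom. The fits were tested on simulated data.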

Additional observations from a re-analysis of the deposited data

How the results depend on the processing

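Genes called depended on the tool. In edgeR as reported there were 0, 0, 3 and 0 for ZEB2 knockout against control, ZEB1 knockout against control, ZEB2 control against ZEB1 control, and the difference. DESeq2 gave 2519, 21, 16 and 15, no low-count filter 348, 6, 7 and 2, limma-voom 1 in the ZEB1 comparison, RLE scaling 5 between the controls, and the ZEB2 groups alone 2077. Leaving out 1 library gave 0 to 0, 0 to 5, 1 to 5 and 0 to 3. Replicate numbers did not pair the libraries: same-numbered pairs had a median r of 0.11 (15 pairs, from -0.42 to 0.46) and 5 of 11 libraries correlated best with their own number. The replicate block gave 1 gene between the controls and moved no call of a member. Members without overlap in the ZEB1 comparison numbered 1 with CPM not scaled by TMM. The number of members lower, added after seeing the data, was 4 to 5, 5 to 7 and 7 to 9 with 1 library left out.

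Directions changed for Ier3 in ZEB2 knockouts, at 0.025 in DESeq2 and 0.021 with RLE scaling, and for the Egr1 difference, at 0.10 in limma-voom. With 1 library left out, ZEB2 knockout values ran from -0.33 to 0.30 for Fos, -0.45 to 0.26 for Fosb and -0.073 to 0.089 for Ier3, ZEB1 values from -0.35 to 0.75 for Junb and -0.52 to 1.01 for Btg2, control values from -0.94 to 0.16 for Junb and -1.37 to 0.17 for Btg2, and differences from -0.082 to 0.68 for Fos, -0.085 to 0.72 for Jun, -0.18 to 0.92 for Junb, -0.96 to 0.50 for Egr1 and -0.49 to 0.24 for Myc. The cause was not tested. With groups of 2 or 3 pools, differences within the SE given cannot be resolved.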
